A study of Homo sapiens with 9 samples.

Results

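Transcript levels were compared between A375 cells given 20 mM metformin and A375 cells given none. A375 is an established human melanoma cell line with an activating BRAF mutation, and the labels give its genotype as WT at every dose. The comparison takes every gene with a mean of at least 1 FPKM (fragments scaled by transcript length and library depth) over all 9 libraries of the series, which left 12394 of the 37118 genes listed. It uses 6 libraries, 3 labelled Metformin 0mM and 3 labelled Metformin 20mM. The other 3 libraries, labelled Metformin 40mM, entered the same fit, and their levels are given beside some genes. The labels state neither the exposure time nor the culture medium. They do not say whether replicates came from different dishes, so the p-values rest on library-to-library spread that could be technical. Since these are bulk samples, a change in the share of cells in a given state and a change of RNA per cell cannot be told apart.

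Metformin is a biguanide drug of type 2 diabetes that enters mitochondria and inhibits complex I of the respiratory chain. Less ATP activates the kinase AMPK, and slower turnover of NADH limits aspartate and nucleotide synthesis and engages the integrated stress response through ATF4. In melanoma, cells move between a pigmented state driven by MITF and SOX10 and poorly pigmented states with high AP-1 activity. A list of ATF4 targets (59 tested) and a list of ferroptosis and iron genes (25 tested) were left out of the ranking of single genes and are not described as groups. Lists that share members with them keep those members in their counts, and 8 lists do. Genes outside the ATF4 list, the ranked ones included, may still be targets of ATF4, which was not tested.

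Total counts lay between 71989352 and 75400950 in the 6 libraries, and reads of the mitochondrial genome took 2.76 to 3.53% of counts at 0 mM and 3.63 to 3.77% at 20 mM. SOX10, the neural crest factor of melanoma, stood at 93.7 to 114 FPKM over the 0 mM libraries and at 94.1 to 101 FPKM over the 20 mM libraries. MITF, MIA, S100A1 and S100B were also expressed, and none of these 5 was called at 20 mM. The pigment genes PMEL, MLANA and DCT were below 1 FPKM and TYR was listed at 0 in all 6, so the libraries carried the neural crest markers without the pigmentation genes. Summed markers of endothelial cells reached 0.37 FPKM and those of leukocytes 0.517 FPKM at most in the 6 libraries. The 3 measured keratinocyte markers summed to 23 to 26.6 FPKM at 0 mM and 26.4 to 27.2 FPKM at 20 mM, nearly all from KRT14 and KRT10, which were not called. The 5 fibroblast markers summed to 3.37 to 4.10 FPKM at 0 mM and 4.0 to 5.20 FPKM at 20 mM, nearly all from LUM, with COL1A1, COL1A2 and DCN below 0.2 FPKM. LUM was called (0.36 ± 0.12), a call lost without replicate 1 or 2 of 0 mM, replicate 1 or 2 of 20 mM, or replicate 2 of 40 mM. Whether these markers have a part in any result was not tested. Below, levels are FPKM per library or mean ± SD with n = 3 per dose, and changes are log2 fold changes at 20 against 0 mM ± SE.

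The lower dose moved many genes by small amounts. By edgeR's quasi-likelihood test at an adjusted p under 0.05, 3911 genes were called, 31.6% of those tested, with 2025 higher (16.3%) and 1886 lower (15.2%). The words rose and fell below refer to these calls. The median size was 0.33 among rises and 0.28 among falls on the log2 scale, and 75.7% of rises and 86.6% of falls were smaller than 0.5. In 2014 of the 2025 rises and 1876 of the 1886 falls, the 3 libraries at 20 mM did not overlap the 3 at 0 mM. Over all 12394 genes tested, called or not, 3176 were higher and 3080 lower without overlap. The gap and the call rest on the same values, so the gap adds no support. Only 98 genes rose and 31 fell by 2-fold or more. Of those 98 rises, 28 were in the ATF4 list and 58 in none of the lists used here, and 43 started below 1 FPKM. Of the 31 falls of that size, 23 had no protein-coding transcript. The same held for 23 of the 98 rises and for 1797 of the 12394 genes tested. The mitochondrial genome gave 9 of the 31 falls and none of the 98 rises. Of its 37 genes tested, 18 fell and 5 rose. Its share of all counts did not fall, at 2.76 to 3.53% at 0 mM and 3.63 to 3.77% at 20 mM.

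The share of genes called varied with level and with genomic length, as a description with no test. Among the 324 genes at 100 FPKM or more, 28.1% fell and 10.8% rose, while among the 5411 genes at 1 to 5 FPKM, 10.5% fell and 15.6% rose. By length in the genome, 8.81% of genes under 5 kb rose and 10.4% fell, against 21.5% and 13.8% of the 1959 genes spanning 100 kb or more. The median span was 35.9 kb among risers, 27.4 kb among fallers and 23.3 kb among genes not called. Genes without a protein-coding transcript had 11.8% higher and 6.18% lower of 1797, against 17.1% and 16.8% of 10597 protein-coding genes. By chromosome, the ratio of falls to rises was highest, among nuclear chromosomes, on chromosome 21 (36 lower and 10 higher of 156), and that of rises to falls on X (95 higher and 46 lower of 460) and 15 (94 and 50 of 408). The part that level, length or chromosome has in the calls of the gene groups below was not tested.

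**Figure D1:**
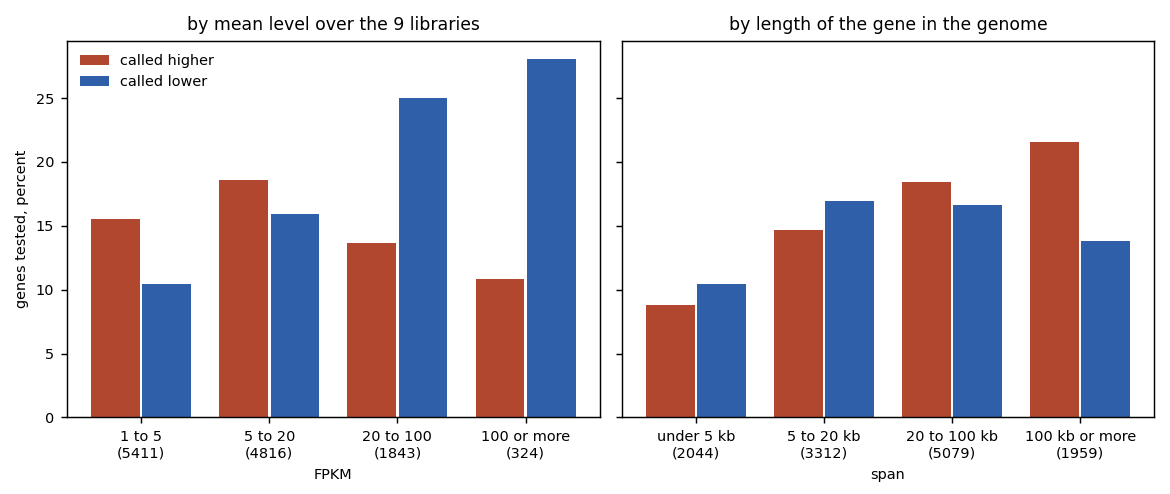
Share of tested genes called higher (red) or lower (blue) at 20 against 0 mM, in percent, by mean FPKM over the 9 libraries (left) and by genomic span (right), with the number of genes in parentheses. The share of falls goes from 10.5% in the lowest level class to 28.1% in the highest, and the share of rises goes from 8.81% for the shortest genes to 21.5% for the longest.

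The ranking took called genes outside the ATF4 and ferroptosis lists with a mean of at least 5 FPKM at the dose with the higher level. Only genes whose 0 and 20 mM libraries did not overlap were admitted, so a gap between the doses was fixed in advance in this ranking. Its first rise was a noncoding gene listed under the clone name AC009093 (ENSG00000260953, chromosome 16, 29262273 to 29264479), at 0.67 ± 0.111 FPKM at 0 mM and 6.35 ± 0.839 FPKM at 20 mM (3.22 ± 0.20). S100P, a small calcium-binding protein of epithelial tumours (ENSG00000163993, chromosome 4, 6693878 to 6697170), stood at 2.81, 2.18 and 1.54 FPKM at 0 mM and at 7.14, 11 and 13.3 FPKM at 20 mM. Its change was 2.26 ± 0.30 (adjusted p = 0.00035). MAP1B, a microtubule-associated protein of growing neurites (ENSG00000131711, chromosome 5, 72107234 to 72209565), went from 3.22, 3.16 and 3.53 FPKM to 11.6, 11.8 and 12.3 FPKM. The libraries of each dose lay close together, and the change was 1.84 ± 0.07 (adjusted p = 3.3e-08). NIBAN1, a stress-inducible regulator of translation (ENSG00000135842, chromosome 1, 184790724 to 184974508), stood at 5.18, 5.23 and 5.41 FPKM against 16.7, 18.1 and 18.6 FPKM at 20 mM. It rose by 1.75 ± 0.06 (adjusted p = 3.3e-08). GRB10, an adaptor that restrains insulin receptor signalling (ENSG00000106070, chromosome 7, 50590063 to 50793462), had a mean that went from 2.16 ± 0.176 to 5.86 ± 0.331 FPKM (1.43 ± 0.06, adjusted p = 1.2e-07). CD68, a glycoprotein of late endosomes and lysosomes (ENSG00000129226, chromosome 17, 7579491 to 7582111), went from 3.90 ± 0.411 to 11.9 ± 1.04 FPKM (1.60 ± 0.15), although a gene on the same strand overlaps it, so its level is uncertain.

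The other ranked rises included those of TUBE1, the epsilon tubulin of centrioles (1.25 ± 0.06), SEL1L3 (1.23 ± 0.06), the homeobox gene HOXB9 (1.19 ± 0.11) and the long noncoding RNA LINC00973 (1.19 ± 0.14). HOXB7 overlaps HOXB9 on the same strand and stood at 13.0 FPKM at 0 mM and 14.6 FPKM at 20 mM. The value of HOXB9 is therefore uncertain. CBSL (1.57 ± 0.12) is a near-identical copy of the cystathionine beta-synthase gene, and SPANXB1 (1.26 ± 0.15) belongs to a family of near-identical cancer-testis genes, so the values of both are uncertain.

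The same ranking gave 12 falls. TFAP2B, a neural crest transcription factor (ENSG00000008196, chromosome 6, 50818723 to 50847619), stood at 6.26, 7.76 and 9.87 FPKM at 0 mM and at 2.13, 2.33 and 2.58 FPKM at 20 mM. The treated libraries were tightly grouped below the more scattered controls, and the fall was -1.76 ± 0.21 (adjusted p = 0.00016). SLC1A1, a transporter of glutamate and cysteine (ENSG00000106688, chromosome 9, 4490468 to 4587469), went from 7.73, 8.08 and 8.09 FPKM to 3.45, 3.55 and 3.56 FPKM (-1.18 ± 0.07, adjusted p = 1.2e-06). At 40 mM it was lower again than at 20 mM (-1.01, adjusted p = 3.4e-05), in a contrast where 29.3% of genes were called. FLRT3, a cell adhesion protein of axon guidance, went from 9.18 ± 0.263 to 4.6 ± 0.233 FPKM (-1.0 ± 0.08), DPYSL5, a collapsin response mediator, from 7.68 ± 0.277 to 3.97 ± 0.172 FPKM (-0.95 ± 0.06), and SHISA2, an inhibitor of Wnt and FGF receptor maturation, from 11.6 ± 0.227 to 6.12 ± 0.391 FPKM (-0.93 ± 0.08). The kinase PSKH1 (-0.87 ± 0.09) and LYPD1 (-0.86 ± 0.11), a modulator of nicotinic receptors, followed. The noncoding gene AC025470 fell by 1.16 on the log2 scale. Of the rest, AP002990 (-2.12 ± 0.44) overlaps EEF1G and TUT1 on its own strand, and the 3 copies of 5.8S ribosomal RNA, RNA5-8SN2, RNA5-8SN3 and 5_8S_rRNA, are RNAs without a poly(A) tail in poly(A)-selected libraries, so these 4 are uncertain.

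**Figure D2:**
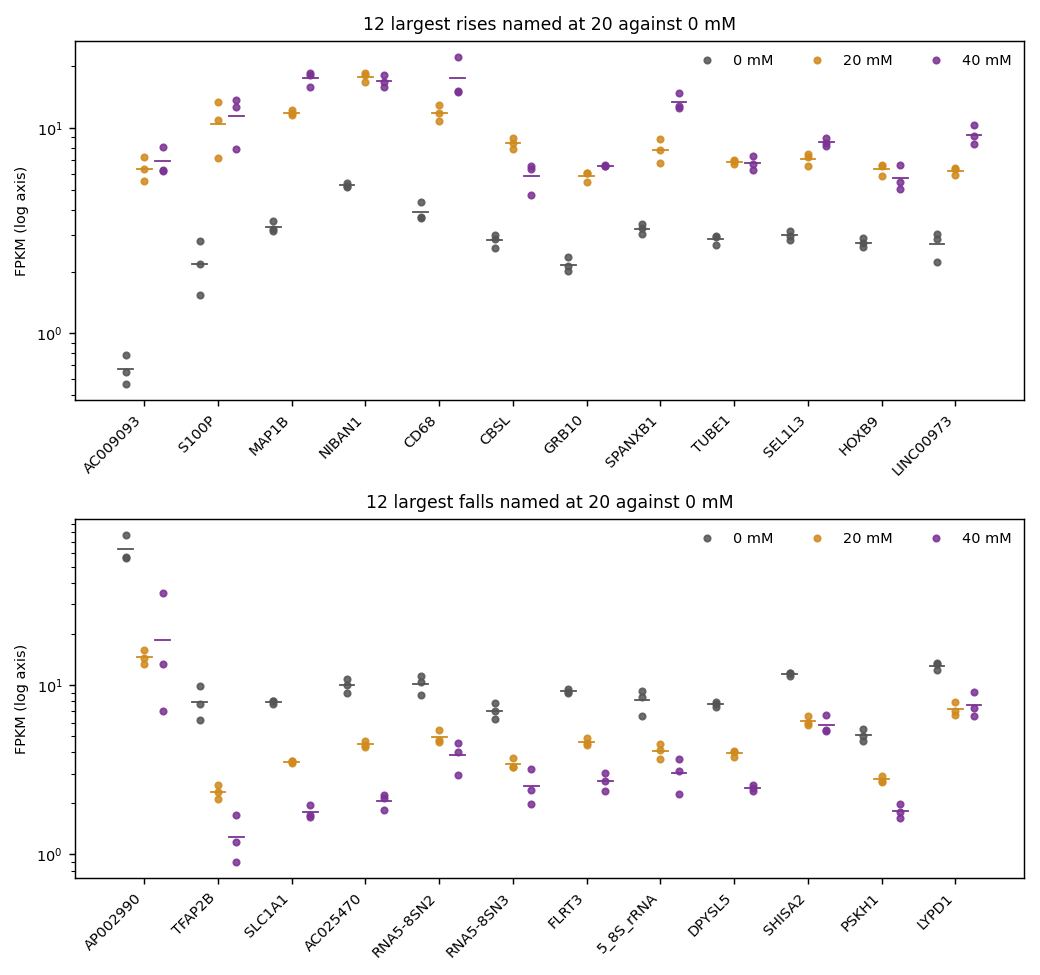
FPKM on a log axis in each library at 0, 20 and 40 mM for the 12 largest rises (top) and 12 largest falls (bottom) named by the ranking rule. Points are single libraries and short lines are means. The rule took only genes whose 0 and 20 mM libraries do not overlap, and AC009093 shows the largest rise (3.22).

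Gene groups were described with 62 lists, each by the members that passed the level filter. The shares of all tested genes, 16.3% higher and 15.2% lower, are the base against which a list's counts are read, and the median change of all tested genes was 0.00. That base differs by level, and at 20 to 100 FPKM 25.0% of 1843 genes fell and 13.7% rose. Median levels were 50.7 FPKM among SR proteins and hnRNPs, 41.2 FPKM among translation factors and 32.4 FPKM in the proteasome list. They were 99.8 FPKM for chaperonin and prefoldin and 18.1 FPKM for mitochondrial ribosomal proteins, against 6.34 FPKM in the AP-1 list. Counts were not adjusted for level. No list was tested as a set, and some lists share members. Without members of the ATF4 and ferroptosis lists, the rises of the nuclear transport, p53, TGF-beta, AP-1 and ion channel lists each dropped by 1. Some called members averaged under 1 FPKM at one of the compared doses and passed the level filter through other libraries, so they could enter a count in the direction of their change only. Among the members named below these are IL1A, IFIT2, ERAP2, BHLHE41, STC1, KCND1, KCNJ14, PRKAA2, MMP3 and INHBE, low at 0 mM, and CDKN1C, FLT1 and ID2, low at 20 mM.

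**Figure D3:**
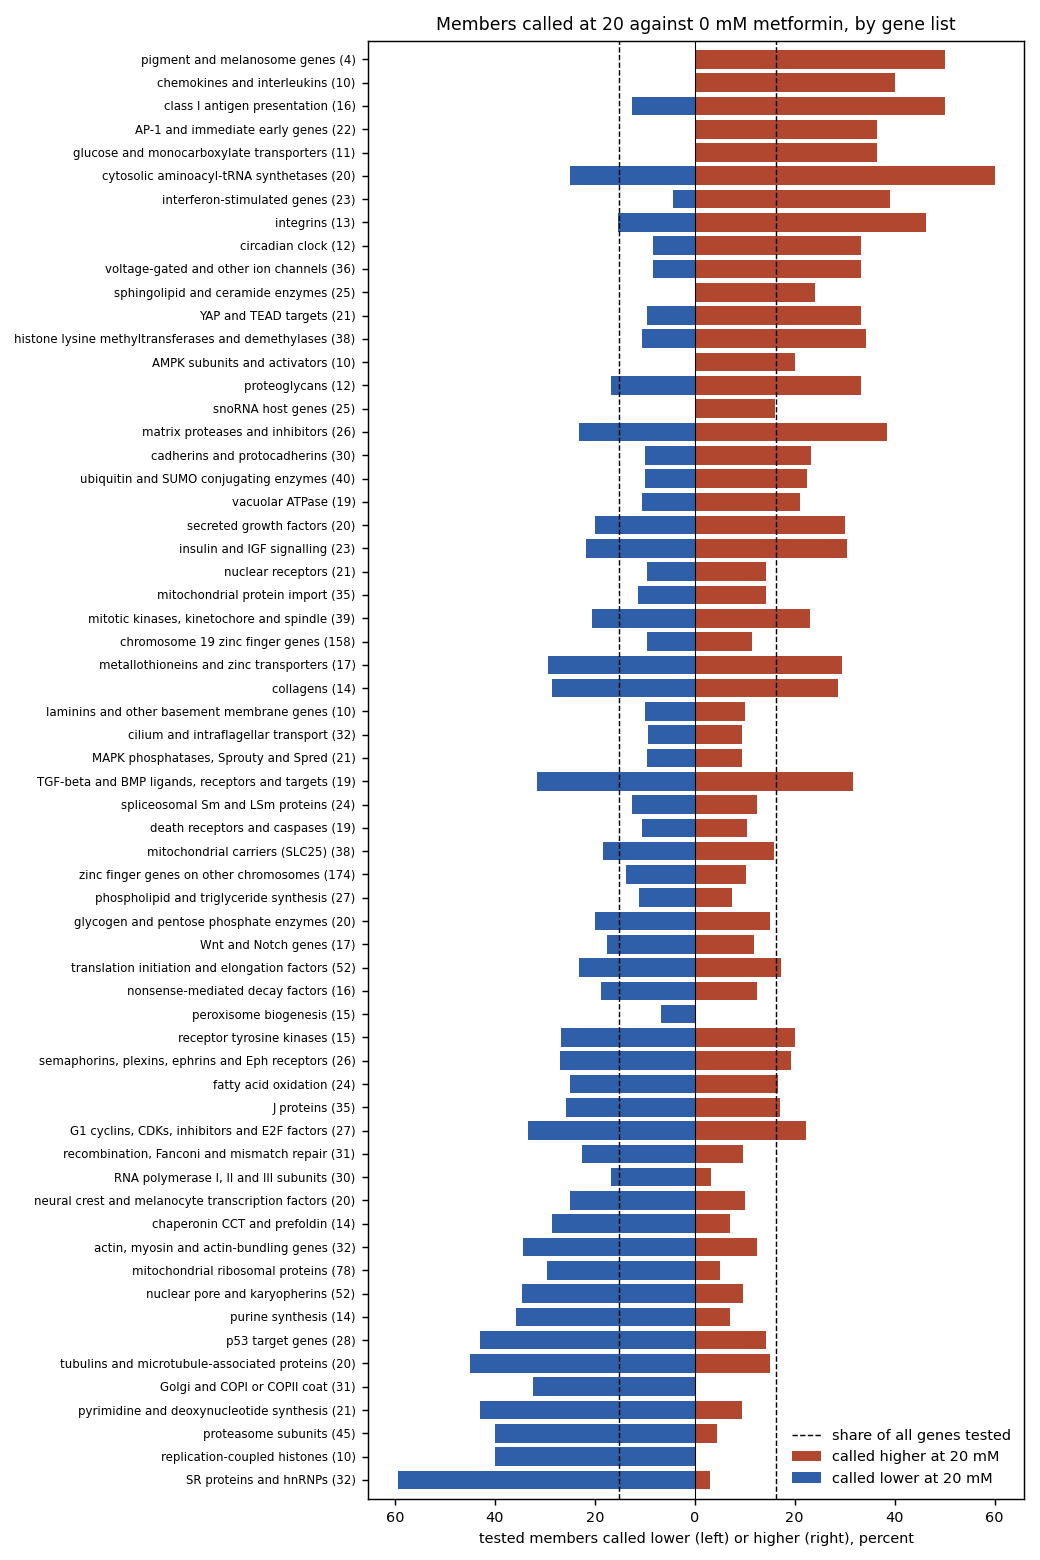
Percent of tested members called lower (blue, left) and higher (red, right) at 20 against 0 mM in each of the 62 lists, with the number tested in parentheses and lists ordered by the difference of the shares. Dashed lines mark the shares of all tested genes, 16.3% and 15.2%, and SR proteins and hnRNPs lie farthest to the left with 19 of 32 lower.

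Falls outnumbered rises among splicing regulators, nuclear transport genes and mitochondrial ribosomal proteins, but not among all genes that process or translate RNA. The SR proteins and hnRNPs bind nascent RNA and set splice site choice, and 19 of the 32 tested (37 listed) fell while 1 rose, with a median of -0.15. By family, 6 of 11 SR proteins and 13 of 21 hnRNPs fell. HNRNPH1, which binds G-rich runs near exons (chromosome 5, 179614178 to 179634473), stood at 74.2, 71.8 and 73.6 FPKM at 0 mM and at 57.1, 56.4 and 53 FPKM at 20 mM. Its doses were well apart (-0.40 ± 0.04, adjusted p = 4.5e-05). The splicing factor SRSF7 went from 54.8 ± 2.05 to 41.4 ± 1.03 FPKM (-0.41 ± 0.07, adjusted p = 0.0015) and SRSF6 from 52.0 ± 1.60 to 40.0 ± 1.04 FPKM (-0.38 ± 0.04). HNRNPA3 was the member that rose (0.27). The core Sm and LSm proteins of the spliceosome gave 3 higher and 3 lower of 24, with a median of -0.08.

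Nuclear transport followed, with 18 of 52 genes of the nuclear pore and the karyopherins lower and 5 higher. RAN, the GTPase that gives import and export their direction, stood at 144, 143 and 133 FPKM at 0 mM and at 104, 106 and 104 FPKM at 20 mM (-0.42 ± 0.08, adjusted p = 0.0021). NUP210, a membrane-spanning nucleoporin, went from 1.75 ± 0.105 to 1.08 ± 0.0182 FPKM (-0.70 ± 0.11), and the importin IPO4 fell by 0.45 on the log2 scale. XPOT, the exportin of tRNA, went the other way, from 48.7 ± 0.296 to 77.8 ± 1.03 FPKM (0.67 ± 0.04, adjusted p = 1.2e-06), and is also in the ATF4 list. The list had 11 falls when replicate 3 of 20 mM was left out.

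Of the 78 mitochondrial ribosomal proteins, which build the ribosome that translates the mitochondrial genome, 23 fell and 4 rose (median -0.11), with 13 of 49 lower in the large subunit and 10 of 29 in the small. MRPS18B stood at 42.2, 41.9 and 40.0 FPKM at 0 mM and at 30.7, 29.4 and 29.0 FPKM at 20 mM (-0.48 ± 0.05, adjusted p = 5.4e-05), and MRPL58 went from 25.4 ± 1.22 to 18.0 ± 0.888 FPKM (-0.50 ± 0.06). The 23 falls became 12 without replicate 1 of 0 mM, 14 without its replicate 2, 13 without replicate 2 of 20 mM and 14 without its replicate 3. Among the 52 cytosolic initiation and elongation factors, 12 fell and 9 rose. EIF4G1, the scaffold of cap-dependent initiation, was at 79.4 ± 0.897 and 57.7 ± 3.44 FPKM (-0.46 ± 0.05, adjusted p = 6.8e-05), whereas EIF2S2, a subunit of the initiator tRNA carrier, went from 113 ± 1.26 to 159 ± 5.11 FPKM (0.49 ± 0.04). Of 20 cytosolic aminoacyl-tRNA synthetases, 12 rose, all of them in the ATF4 list, and 5 of the other 8 fell, among them RARS1 (-0.25) and KARS1 (-0.20). No snoRNA host gene fell and 4 of 25 rose, led by GAS5 (0.49 ± 0.07), and RNA polymerase subunits gave 1 higher and 5 lower of 30.

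**Figure D4:**
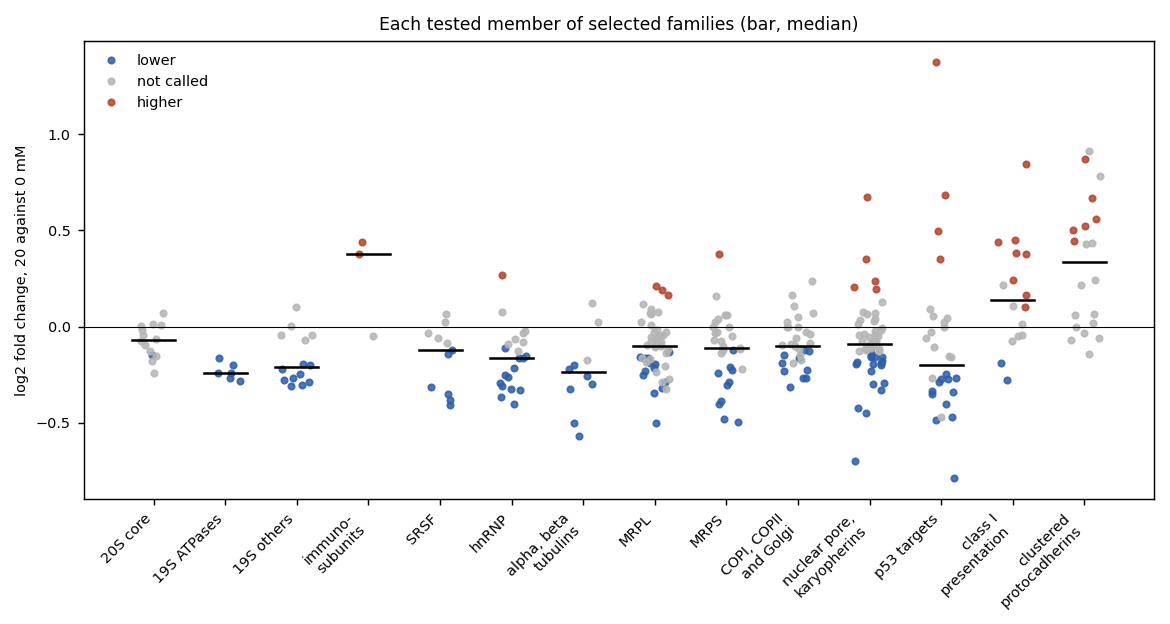
Log2 fold change at 20 against 0 mM of each tested member of 14 families, with called members in red (higher) or blue (lower), members not called in grey and bars at the medians. The families were chosen after their values were seen. All 6 19S ATPases lie below 0 in blue, while the 20S core has 1 blue point.

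Within the proteasome, the falls lay mainly in the regulatory particle. Of 45 tested subunits and relatives 18 fell and 2 rose. All 6 ATPases of the 19S particle, PSMC1 to PSMC6, which unfold substrates, fell (median -0.24), as did 9 of its 14 other subunits, but of the 14 subunits of the 20S core, the proteolytic barrel, 1 fell and none rose. PSMD7 stood at 63.2, 68.3 and 65.0 FPKM at 0 mM and at 49.8, 53.4 and 55.9 FPKM at 20 mM (-0.31 ± 0.05, adjusted p = 0.0012). At 40 mM its level was lower still than at 20 mM, at 37.3, 39.8 and 37.0 FPKM. The 2 rises were the immunoproteasome subunits PSMB8 (0.38 ± 0.12, adjusted p = 0.034) and PSMB9 (0.44 ± 0.15, adjusted p = 0.043), which replace core subunits in cells that present antigen. The PSMB8 call was lost without replicate 1 or 3 of 0 mM or any library of 20 mM, and the PSMB9 call without replicate 2 or 3 of 0 mM, any library of 20 mM or replicate 1 of 40 mM. The split of the list into these parts was made after the values were seen, and whether the core and the regulatory particle differ was not tested.

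Other folding and transport machinery moved less uniformly. Subunits of the chaperonin CCT, which folds actin and tubulin, and of prefoldin gave 4 lower and 1 higher of 14, and CCT3 went from 178 ± 2.28 to 140 ± 1.48 FPKM (-0.35 ± 0.06). Only 2 fell without replicate 1 or 2 of 0 mM or replicate 2 or 3 of 20 mM, and 9 fell without replicate 3 of 40 mM. Of 31 Golgi and COPI or COPII coat genes, which carry cargo between the endoplasmic reticulum and the Golgi, 10 fell and none rose. SEC24A, a cargo adaptor of the COPII coat, stood at 11.1, 11.6 and 11.9 FPKM at 0 mM and at 9.52, 9.52 and 8.83 FPKM at 20 mM (-0.31 ± 0.04, adjusted p = 0.0004). COPG1 of the COPI coat went from 32.9 ± 0.995 to 28.1 ± 1.02 FPKM (-0.23 ± 0.05). J proteins gave 6 higher and 9 lower of 35, with DNAJA1 at -0.47 ± 0.05, and their falls numbered 5, 4, 3 and 3 without replicates 1 and 2 of 0 mM and replicates 2 and 3 of 20 mM, respectively.

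Several tubulins and actins fell. Of the 10 alpha and beta tubulins tested, 7 were lower and none higher (median -0.24), and the list with microtubule-associated proteins had 9 lower and 3 higher of 20. TUBB6 stood at 22.5, 23.1 and 22.3 FPKM at 0 mM and at 16.0, 14.9 and 14.8 FPKM at 20 mM (-0.57 ± 0.05, adjusted p = 3.5e-05). TUBB3, the neuronal beta tubulin, went from 58.8 ± 2.21 to 41.6 ± 1.34 FPKM (-0.50 ± 0.05). The tubulins are close in sequence, so reads may be split between them. Of 32 actin, myosin and actin-bundling genes, 11 fell and 4 rose, but the median was 0.02. ACTB, the cytoplasmic beta actin often used as a reference gene, was at 499, 494 and 484 FPKM at 0 mM and at 421, 389 and 367 FPKM at 20 mM (-0.33 ± 0.05, adjusted p = 0.0012). ACTG1 (-0.38 ± 0.09) and the myosin light chain MYL12A (-0.48 ± 0.08) were also lower, and RDX, which links actin to the membrane, was higher (0.38 ± 0.04). Cilium and transport genes gave 3 higher and 3 lower of 32.

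Among targets of p53, the tumour suppressor that arrests damaged cells, falls outnumbered rises. Of 28 tested, 12 were lower and 4 higher, with a median of -0.20. PLK2, a polo-like kinase induced by p53 (chromosome 5, 58453982 to 58460086), stood at 17.7, 17.1 and 15.2 FPKM at 0 mM and at 10.4, 9.79 and 8.88 FPKM at 20 mM. Every treated library was lower (-0.79 ± 0.09, adjusted p = 0.00015), and at 40 mM the level was 14.1, 12.1 and 11.1 FPKM. The p53 ubiquitin ligase MDM2 (-0.33), the cell cycle inhibitor CDKN1A (-0.34), the repair protein DDB2 (-0.48), FDXR (-0.47), SESN1 (-0.40) and BAX (-0.27) fell too. The 4 that rose were SESN2 (1.38 ± 0.07), which is also in the ATF4 list, GADD45A (0.68 ± 0.06), the cell death gene BBC3 (0.50 ± 0.13) and the death receptor TNFRSF10B (0.35 ± 0.04). The BBC3 call was lost without replicate 2 of 0 mM (adjusted p = 0.054). Death receptors and caspases gave 2 higher and 2 lower of 19.

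Enzymes of nucleotide synthesis and G1 regulators also leaned lower. Of 21 genes of pyrimidine and deoxynucleotide synthesis, 9 fell and 2 rose. TYMS, which makes thymidylate (chromosome 18, 657653 to 673578), stood at 105, 101 and 101 FPKM at 0 mM and at 63.6, 66.9 and 63.0 FPKM at 20 mM (-0.67 ± 0.06, adjusted p = 2.6e-05). TK1 (-0.30 ± 0.05), CTPS1 (-0.34 ± 0.08) and DHODH (-0.25), the pyrimidine enzyme joined to the respiratory chain that is also in the ferroptosis list, were lower as well. UPP1, which cleaves uridine, rose from 5.60 ± 0.355 to 10.1 ± 0.389 FPKM (0.85 ± 0.08). In purine synthesis 5 of 14 fell and 1 rose, the 5 falls becoming 3 without replicate 2 or 3 of 0 mM or any library of 20 mM. GART, which catalyses 3 steps of the pathway, was the rise (0.24 ± 0.04).

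Among 27 G1 cyclins, CDKs, inhibitors and E2F factors, 9 fell and 6 rose, the rises becoming 3 without replicate 2 or 3 of 0 mM or replicate 1 of 20 mM. CDKN1C, an imprinted inhibitor of G1 kinases (chromosome 11, 2883213 to 2885771), stood at 2.75, 2.90 and 3.00 FPKM at 0 mM and at 1.10, 0.881 and 0.828 FPKM at 20 mM. It fell by 1.61 ± 0.15 on the log2 scale (adjusted p = 2.8e-05). E2F8, a repressor of the E2F family, went from 2.83 ± 0.222 to 1.69 ± 0.137 FPKM (-0.74 ± 0.11), whereas its relative E2F7 rose (0.40 ± 0.05). Mitotic genes split into 9 higher and 8 lower of 39, with PRC1, the midzone crosslinker, at 29.7 ± 0.900 and 19.9 ± 1.5 FPKM (-0.58 ± 0.07). Their rises fell to 3, 5 and 4 without replicate 2 of 0 mM, replicate 3 of 0 mM and replicate 2 of 20 mM, and their falls to 5 without replicate 1 of 0 mM or replicate 3 of 20 mM. Of 10 replication-coupled histone genes, whose mRNAs mostly lack poly(A) tails, 4 fell and none rose, with 2 falls left without replicate 1 of 0 mM or replicate 2 or 3 of 20 mM. Genes of recombination, Fanconi and mismatch repair gave 7 lower and 3 higher of 31, and MSH6, a mismatch sensor, stood at 15.7 to 15.8 FPKM at 0 mM and at 11.3 FPKM in every library of 20 mM (-0.48 ± 0.04, adjusted p = 2.5e-05).

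Rises outnumbered falls among genes of inflammation and of the AP-1 family. AP-1 and immediate early genes encode transcription factors that respond to growth factors and stress, and 8 of 22 rose while none fell (median 0.19). KLF4, a zinc finger factor of stress and differentiation, stood at 7.46, 7.39 and 6.94 FPKM at 0 mM and at 12.9, 13.3 and 13.2 FPKM at 20 mM (0.85 ± 0.05, adjusted p = 1.2e-06). FOSL1, the most abundant AP-1 subunit named here, went from 124 ± 6.34 to 166 ± 8.34 FPKM (0.42 ± 0.08), and MAFF, a small MAF protein, from 3.52 ± 0.256 to 5.39 ± 0.189 FPKM (0.61 ± 0.07). ATF3 rose by 1.33 ± 0.20 and is also an ATF4 target. The count was 5 without replicate 2 or 3 of 0 mM or replicate 1 or 2 of 20 mM.

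Of the 10 chemokines and interleukins that passed the filter, 4 rose and none fell (median 0.42), with IL1A having passed through the metformin libraries, where it was higher. IL24, a secreted cytokine of the interleukin-10 family that was found in differentiating melanoma cells (chromosome 1, 206897443 to 206904139), stood at 71.5, 65.8 and 57.8 FPKM at 0 mM and at 145, 146 and 145 FPKM at 20 mM. The treated libraries were nearly equal and each was over 2-fold the mean of the controls (1.16 ± 0.11, adjusted p = 3.7e-05). IL1A, an alarm cytokine, went from 0.66 ± 0.115 to 1.77 ± 0.236 FPKM (1.41 ± 0.20), LIF from 12.1 ± 0.949 to 20.1 ± 1.31 FPKM (0.72 ± 0.07) and CCL28 from 1.82 ± 0.0152 to 2.80 ± 0.198 FPKM (0.62 ± 0.11).

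Interferon-stimulated genes gave 9 higher and 1 lower of 23. IFIT2, which binds viral RNA, stood at 0.761, 0.587 and 0.689 FPKM at 0 mM and at 1.26, 1.30 and 1.61 FPKM at 20 mM (1.03 ± 0.14, adjusted p = 0.00043). ISG20, an exonuclease, went from 3.94 ± 0.144 to 6.66 ± 0.290 FPKM (0.75 ± 0.08), and IRF1, a factor that induces such genes, rose by 0.58. Of 16 genes of class I antigen presentation, by which cells show peptides to T cells, 8 rose and 2 fell, the latter the chaperones CALR (-0.28) and PDIA3 (-0.19). The peptide transporter TAP2 stood at 12.8, 13 and 12 FPKM at 0 mM and at 16.6, 16.9 and 16.0 FPKM at 20 mM (0.38 ± 0.05, adjusted p = 0.00019). The loading factor TAPBP went from 4.39 ± 0.127 to 6.01 ± 0.713 FPKM (0.45 ± 0.10), and the rise of B2M (0.17) was small. The class I count was 5 without replicate 3 of 0 mM or replicate 1 or 3 of 20 mM and 4 without replicate 2 of 20 mM. Leukocyte markers stood at 0.313 to 0.456 FPKM in sum at 0 mM and at 0.362 to 0.517 FPKM at 20 mM, nearly all of it CD14, with PTPRC and CD3E listed at 0 in every 20 mM library.

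Promoters were searched for 16 motifs on both strands, from 250 bases before to 50 bases after the RefSeq start (GRCh38.p14), for the 8885 tested genes with an entry. The AP-1 site TGACTCA was present in 4.71% of 1507 promoters of genes called higher, 1.99% of 1510 called lower, 2.64% of 5868 not called and 4.92% of all 27305 RefSeq promoters. The core of the C/EBP-ATF element, TGATGNAAT, was present in 0.863%, 0.0662% and 0.494% of the same groups and 1.02% of all. Those 3 group shares are only 13, 1 and 29 promoters. The ETS site CCGGAAGT went the other way, at 7.37% of risers, 12.1% of fallers, 10.1% of genes not called and 4.44% of all promoters. The NRF1 core GCGCATGCG was present in 2.59%, 4.50%, 4.16% and 2.1% of the same groups. In the 151 promoters of genes lower by 0.5 or more on the log2 scale, the ETS site was at 1.32% (2 promoters). Its contrast with risers thus did not hold among the larger falls. The AP-1 site was there at 3.97%, the NRF1 core at 3.31% and the C/EBP-ATF core at 0%. The 55 promoters of genes at least 2-fold higher had the AP-1 site at 9.09% (5 promoters) and the ETS site at 5.45% (3 promoters). None of these 4 motifs contains another. Median GC content was 65.7% in risers and 66.2% in fallers. The stretches below are from promoters of genes that rose, with the motif in capitals (the AP-1 site, written on the gene's strand as TGACTCA or its reverse complement, or for S100P the C/EBP-ATF core in reverse complement). The first 5 carry the AP-1 site and S100P the other motif. A match is a description of the sequence, and binding was not measured. The CD68 stretch lies before the RefSeq start but within the deposited span of the gene (7579491 to 7582111).
CD68, chr17:7579518-7579564, plus strand: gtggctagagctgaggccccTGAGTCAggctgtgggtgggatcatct
ISG20, chr15:88638974-88639015, plus strand: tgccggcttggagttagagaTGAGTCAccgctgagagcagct
IL1A, chr2:112784494-112784525, minus strand: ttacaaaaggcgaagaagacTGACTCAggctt
MT2A, chr16:56608460-56608506, plus strand: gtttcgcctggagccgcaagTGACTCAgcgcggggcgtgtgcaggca
GPNMB, chr7:23246621-23246667, plus strand: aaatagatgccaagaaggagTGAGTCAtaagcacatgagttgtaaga
S100P, chr4:6693734-6693782, plus strand: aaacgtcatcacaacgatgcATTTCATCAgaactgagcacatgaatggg

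YAP and TEAD targets, which respond to cell tension, had 7 higher and 2 lower of 21. ANKRD1, a nuclear ankyrin repeat protein that is a standard readout of YAP (chromosome 10, 90912096 to 90921087), stood at 1.41, 1.18 and 0.720 FPKM at 0 mM and at 3.74, 3.64 and 3.28 FPKM at 20 mM (1.68 ± 0.24, adjusted p = 0.00051). CCN1, a matrix-associated signalling protein, went from 11.9 ± 0.716 to 18.0 ± 0.640 FPKM (0.59 ± 0.06) and reached 44.1, 38.7 and 39.0 FPKM at 40 mM. NT5E, the ectoenzyme CD73 that makes adenosine, fell by 0.57 ± 0.05 on the log2 scale.

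In the TGF-beta and BMP group, 6 of 19 rose and 6 fell. INHBA, the activin A subunit, went from 4.16 ± 0.295 to 7.09 ± 0.538 FPKM (0.77 ± 0.07), and SMAD7 (0.46) and TGFBI (0.60), both induced by TGF-beta, rose. INHBE, another activin subunit and an ATF4 target, was listed at 0 in replicate 1 of 0 mM and at 2.07 to 3.05 FPKM at 20 mM. All 3 ID genes tested, helix-loop-helix inhibitors that are the classical BMP targets, fell. ID3 stood at 18.6, 18.7 and 18.4 FPKM at 0 mM, at 12.5, 10.6 and 9.85 FPKM at 20 mM and at 18.3, 18.3 and 19.9 FPKM at 40 mM. The low level was thus in the 20 mM libraries alone (-0.76 ± 0.08 at 20 against 0 mM, adjusted p = 0.0001, and 0.74 at 40 against 20 mM, adjusted p = 0.00022). ID2 gave -0.80 ± 0.20 at 20 mM and ID1 -0.50, and the ID2 call was lost without replicate 2 or 3 of 20 mM, as were 3 of the list's 6 falls without either library. Wnt and Notch genes gave 2 higher and 3 lower of 17, with FZD6 at 0.54 ± 0.06 and LGR4 at -0.63 ± 0.08.

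Genes that remodel the matrix and attach cells to it changed often, in both directions. Of 26 matrix proteases and inhibitors, 10 rose and 6 fell. MMP1, the interstitial collagenase (chromosome 11, 102789919 to 102798160), stood at 2.36, 2.17 and 2.19 FPKM at 0 mM and at 5.43, 4.52 and 4.36 FPKM at 20 mM (1.08 ± 0.16, adjusted p = 0.00066). Its neighbour MMP3, stromelysin 1, went from 0.173 ± 0.0243 to 0.639 ± 0.0847 FPKM (1.85 ± 0.30) and passed the level filter through its 40 mM libraries, at 4.69, 2.98 and 2.02 FPKM. MMP14 (0.57), MMP2 (0.39) and the urokinase receptor PLAUR (0.47) rose. TIMP3, a matrix-bound inhibitor of these proteases, stood at 235, 239 and 240 FPKM at 0 mM and at 149, 148 and 144 FPKM at 20 mM. It fell by 0.69 ± 0.04 on the log2 scale (adjusted p = 1e-06), while its relatives TIMP1 (0.28) and TIMP2 (0.50) rose. Without any single library the list had 10 rises.

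Integrins, the receptors for matrix, gave 6 higher and 2 lower of 13. ITGB5, which pairs with the alpha V chain, went from 20.9 ± 0.189 to 29.4 ± 1.11 FPKM (0.49 ± 0.04, adjusted p = 1.1e-05), and ITGA5 and ITGAV rose by 0.34 and 0.25. Collagens had 4 higher and 4 lower of 14, the rises becoming 1 without replicate 1 or 2 of 0 mM or replicate 1 of 20 mM, or 2 when either other 20 mM library was left out, and the falls 2 without replicate 2 or 3 of 0 mM or replicate 1 of 20 mM. Laminins and basement membrane genes gave 1 and 1 of 10, and proteoglycans 4 higher and 2 lower of 12 (7 higher without replicate 3 of 40 mM), with the co-receptor NRP1 at 0.65 ± 0.06. Among 30 cadherins and protocadherins 7 rose and 3 fell. The clustered protocadherins, which give neurons surface identities, held 6 of those rises and no fall among 20 tested, with a median of 0.33, and PCDHB8 went from 1.19 ± 0.293 to 2.18 ± 0.198 FPKM (0.87 ± 0.18). These genes are close in sequence, so their single values are uncertain.

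Receptors of guidance and growth signals changed in a few large steps. Of 15 receptor tyrosine kinases, 4 fell and 3 rose. FLT1, a receptor for VEGF (chromosome 13, 28300346 to 28495145), stood at 2.0, 2.06 and 2.43 FPKM at 0 mM and at 0.811, 0.813 and 0.820 FPKM at 20 mM (-1.41 ± 0.09, adjusted p = 1.6e-06). KDR, the main VEGF receptor of endothelial cells, went from 3.04 ± 0.291 to 1.54 ± 0.224 FPKM (-0.98 ± 0.12), while their ligand VEGFA, an ATF4 target, rose from 4.59 ± 0.179 to 9.89 ± 0.122 FPKM (1.10 ± 0.04). The endothelial markers PECAM1, CDH5 and VWF were each below 0.2 FPKM in all 6 libraries. DDR2, a collagen receptor kinase (chromosome 1, 162631373 to 162787405), went from 10.2, 10.5 and 11.1 FPKM to 20.2, 21.0 and 21.4 FPKM (0.97 ± 0.04, adjusted p = 1.6e-07). The 4 falls of the list became 2 on leaving out replicate 1 or 2 of 0 mM, or any 20 mM library, and its 3 rises became 1 without replicate 2 or 3 of 0 mM or replicate 1 of 20 mM. Semaphorins, plexins, ephrins and Eph receptors gave 5 higher and 7 lower of 26, with EPHB3 at 3.84 ± 0.446 and 2.15 ± 0.156 FPKM (-0.84 ± 0.11). Secreted growth factors gave 6 higher and 4 lower of 20, among them STC2 (1.55 ± 0.13), also in the ATF4 list, and STC1 (1.21 ± 0.13). Without the ATF4 members STC2 and VEGFA the list gave 4 higher and 4 lower of 18, with a median of 0.04 against 0.12. The 4 falls of the full list became 2 without replicate 1 of 0 mM and 1 without its replicate 2 or any library of 20 mM. MAPK phosphatases, Sprouty and Spred genes gave 2 and 2 of 21, with DUSP5, a nuclear phosphatase of ERK, at 0.80 ± 0.14.

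**Figure D5:**
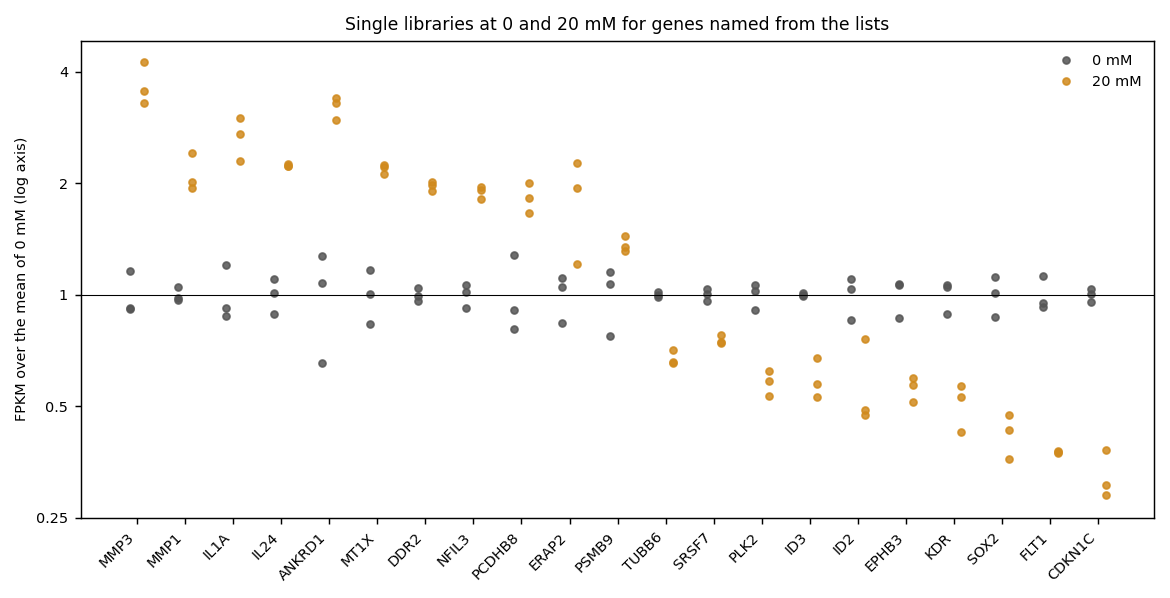
FPKM of each library at 0 mM (grey) and 20 mM (orange) divided by the mean at 0 mM, on a log axis, for 21 genes from the lists. The genes were chosen for display after their values were seen, and in every one the doses do not overlap, although in ERAP2 1 library at 20 mM lies close to the controls.

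Neural crest transcription factors fell more often than they rose, at 5 and 2 of 20. Besides TFAP2B, SOX2, a factor of neural stem cells (chromosome 3, 181711925 to 181714436), stood at 3.57, 4.16 and 4.6 FPKM at 0 mM and at 1.48, 1.78 and 1.95 FPKM at 20 mM. It fell by 1.24 ± 0.22 on the log2 scale (adjusted p = 0.0019). SOX5 went from 16.6 ± 1.57 to 9.93 ± 0.522 FPKM (-0.75 ± 0.12) and FOXD3, which keeps neural crest cells from the melanocyte lineage, from 4.55 ± 0.584 to 3.15 ± 0.0229 FPKM (-0.53 ± 0.13). Of the 4 pigment and melanosome genes that passed the filter of 14 listed, GPNMB rose from 33.2 ± 1.11 to 49.0 ± 1.85 FPKM (0.56 ± 0.05) and RAB38 by 0.21. The RAB38 call was lost without any library of 0 mM or replicate 2 or 3 of 20 mM. Nuclear receptors had 3 higher and 2 lower of 21, with the vitamin D receptor VDR at 0.45 ± 0.05. Of 12 circadian clock genes 4 rose and 1 fell, namely NFIL3 (0.92 ± 0.08), BHLHE41 (0.93 ± 0.13), BHLHE40 (0.51 ± 0.09) and NR1D2 (0.32 ± 0.07), all repressors of transcription, and PER1 (-0.31).

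Histone lysine methyltransferases and demethylases gave 13 higher and 4 lower of 38, although their median was 0.04. KDM7A, a demethylase of histone H3 and H4 (chromosome 7, 140084746 to 140176983), stood at 1.10, 1.21 and 1.22 FPKM at 0 mM and at 2.47, 2.49 and 2.85 FPKM at 20 mM (1.14 ± 0.07, adjusted p = 1.6e-06). KDM4A went from 13.1 ± 0.161 to 20.0 ± 0.641 FPKM (0.61 ± 0.05), and EZH1 (0.52 ± 0.05) and KMT5A (0.53 ± 0.05) also rose. The list had 8 rises without replicate 1 or 2 of 0 mM or replicate 3 of 20 mM. Zinc finger genes gave 18 higher and 15 lower of 158 on chromosome 19 and 18 and 24 of 174 elsewhere. Without 1 library of the 0 or 20 mM groups the lower counts went down to 8 and 11. The rises on other chromosomes became 11 without replicate 2 of 0 mM or replicate 1 or 2 of 20 mM, and those on chromosome 19 became 12 without replicate 2 of 20 mM.

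Among sensors of energy and insulin, the AMPK list gave 2 higher and none lower of 10. PRKAB2, a regulatory beta subunit (chromosome 1, 147155106 to 147172470), stood at 5.55, 5.35 and 5.67 FPKM at 0 mM and at 8.83, 10.4 and 11 FPKM at 20 mM (0.86 ± 0.07, adjusted p = 1.3e-05). PRKAA2, a catalytic subunit, was at 0.34 ± 0.10, a call lost without replicate 1 or 2 of either dose. Insulin and IGF genes gave 7 higher and 5 lower of 23. IGFBP3, which binds IGFs outside cells, went from 8.08 ± 0.302 to 15.1 ± 0.646 FPKM (0.90 ± 0.07), and IRS1, the docking protein of the insulin receptor, from 2.20 ± 0.0969 to 1.60 ± 0.0678 FPKM (-0.47 ± 0.09). IRS1 was back at 2.64, 2.08 and 2.11 FPKM at 40 mM (0.48 at 40 against 20 mM, adjusted p = 0.0036).

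Metabolic transporters and enzymes showed modest shifts. Of 11 glucose and monocarboxylate transporters 4 rose and none fell, among them SLC16A4 (0.69 ± 0.08), SLC2A3, the neuronal glucose transporter (0.27 ± 0.06), and SLC16A1, the lactate carrier MCT1, from 33.2 ± 1.41 to 38.7 ± 1.04 FPKM (0.22 ± 0.05). Sphingolipid enzymes had 6 higher and none lower of 25, with SGPL1, the lyase that ends the pathway, at 2.99 ± 0.102 and 4.52 ± 0.0778 FPKM (0.59 ± 0.06), and the count was 3 without replicate 3 of 0 mM or replicate 1 of 20 mM. Fatty acid oxidation gave 4 higher and 6 lower of 24, CPT1A, the gate of mitochondrial import of fatty acids, falling by 0.36 ± 0.05 on the log2 scale. Metallothioneins and zinc transporters gave 5 and 5 of 17. MT2A, which binds zinc and copper, stood at 197, 212 and 204 FPKM at 0 mM and at 328, 331 and 328 FPKM at 20 mM (0.68 ± 0.07, adjusted p = 3.7e-05). MT1X rose by 1.12 ± 0.20, and the zinc importer SLC39A10 fell by 0.58 ± 0.09 on the log2 scale. The 5 rises became 3 without replicate 2 or 3 of 0 mM or replicate 1 or 2 of 20 mM, and the 5 falls 3 without replicate 2 of either dose. Of 36 ion channels 12 rose and 3 fell, including the potassium channels KCNG1 (0.73 ± 0.09), KCND1 (0.89 ± 0.18) and KCNJ14 (0.90 ± 0.16), and the cation channel TRPM7 (0.62).

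The remaining lists had at most 9 calls in either direction. Mitochondrial carriers gave 6 higher and 7 lower of 38, and mitochondrial protein import 5 and 4 of 35, where TIMM44, a motor component at the inner membrane, rose by 0.56 ± 0.04. Leaving out replicate 3 of 40 mM gave 12 and 11 falls in these 2 lists. Their falls were 4 without replicate 1 or 2 of 0 mM or replicate 1 or 2 of 20 mM for the carriers, and 2 without replicate 1 of 0 mM or replicate 1 or 3 of 20 mM for import. Glycogen and pentose phosphate enzymes gave 3 higher and 4 lower of 20, vacuolar ATPase subunits 4 and 2 of 19, and ubiquitin and SUMO conjugating enzymes 9 and 4 of 40. Phospholipid and triglyceride synthesis gave 2 and 3 of 27, and nonsense-mediated decay factors 2 and 3 of 16. In peroxisome biogenesis none of 15 rose and PEX14 fell (-0.31 ± 0.11), a call lost without replicate 1 or 3 of 0 mM or any library of 20 mM.

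Small counts moved with single libraries in further lists. Replicate 3 of 40 mM raised several counts when left out, to 8 rises among vacuolar ATPase subunits, 7 among snoRNA host genes, 7 among actin and myosin genes, 5 in recombination and mismatch repair, 6 among death receptors and caspases, and to 6 falls in nonsense-mediated decay, 8 among conjugating enzymes, 6 among receptor tyrosine kinases and 5 among Sm and LSm proteins. snoRNA host genes also had 7 rises without replicate 1 of 20 mM, and decay factors 5 falls without replicate 1 of 40 mM. Vacuolar ATPase rises became 2 without replicate 3 of 0 mM or any library of 20 mM. RNA polymerase falls became 3 without replicate 1 or 2 of 0 mM or any library of 20 mM, and the rises of mitochondrial ribosomal proteins 2 without replicate 1 or 2 of 0 mM or replicate 2 or 3 of 20 mM. The rises in recombination and mismatch repair became 1 without replicate 1 of 0 mM or replicate 2 or 3 of 20 mM. The 4 falls among conjugating enzymes became 1 without replicate 2 of 0 mM or replicate 2 or 3 of 20 mM, and the 3 falls each of cadherins and ion channels went down to 1 in several of these cases. Counts of 1 to 3 calls in the cilium, phospholipid, nuclear receptor, MAPK phosphatase, laminin, integrin, neural crest and circadian lists changed by 1 to 4 calls in the same way. With total-count scaling in place of TMM, the medians of the mitotic, MAPK phosphatase and nonsense-mediated decay lists changed sign, and each was within 0.02 of 0 on the log2 scale with either.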

How the data were processed

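Per the labels' protocols, RNA was isolated with TRIzol, poly(A) RNA was captured with oligo(dT) beads, and dUTP-marked strand-specific libraries were sequenced from both ends on an Illumina NovaSeq instrument. The deposited table gives, per its file header, read counts and FPKM per gene and library, and the submitters' processing notes name StringTie 2.1.6. The aligner, genome build and strand of counting were not given in the sources used here. Gene positions are those of the table, and reads of overlapping or antisense genes may not be separable. The deposited counts are not normalized, and the authors' FPKM values are scaled by length and depth.

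Genes with a mean of at least 1 FPKM over 9 libraries were fitted on the deposited counts with edgeR 4.0.16 in R 4.3.3 (TMM scaling, quasi-likelihood test, all 3 doses in 1 fit), with 3 libraries per dose. Genes at a Benjamini-Hochberg adjusted p under 0.05 over the 12394 genes were called. The SE is the absolute log2 fold change divided by the square root of F. Alternatives used limma 3.58.1 on log2 of the deposited FPKM plus 1 or 0.1, DESeq2 1.42.0, other filters and scalings, a replicate block and leaving out each library. The code was tested on simulated data.

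The comparison, the lists and the alternatives were chosen with earlier results of these data known. Genes were named by rule. The ranking took the 12 largest rises and 12 largest falls among called genes with no overlap of libraries. These genes had a mean of at least 5 FPKM at the dose with the higher level. Genes of the mitochondrial genome and of the ATF4 and ferroptosis lists were left out of it. Up to 4 called members of each list with the largest change were also named, as were the cell type markers. Not every gene named by this rule is described above, and the choice among them was made after their values were seen. Other members given by a single value were chosen after their values were seen. So were the sub-groups of lists, such as proteasome parts, alpha and beta tubulins, ID genes and clustered protocadherins. After values were seen, members matched by name alone were removed from lists (ITGB3BP, EIF2AK and EIF4EBP genes, CDK2AP1, BCAN, IGF2BP genes, PHLDA1, histone variants, pseudogenes and readthrough genes). Promoter sequences are RefSeq's (GRCh38.p14), matched by gene symbol, and the motifs printed were picked from 16 after their shares were seen.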

Additional observations from a re-analysis of the deposited data

How the results depend on the processing

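Each dose has 3 libraries, and the median SE of the log2 fold change was 0.11 among genes at 1 to 5 FPKM and 0.05 among those at 20 to 100 FPKM. No direction reversed under any alternative for the counts of calls or the named genes. The named genes were picked for large called changes in these same libraries, so the lack of reversals adds little support. Without the level filter 241 genes were higher and 110 lower by at least 2-fold. With a mean of at least 5 FPKM, 2517 genes were called, 1324 higher and 1193 lower, with 44 and 10 at 2-fold or more. With limma on log2(FPKM + 1), 48 and 14 passed 2-fold. Leaving out 1 library gave 2731 to 4966 calls, 1432 to 2498 higher and 1274 to 2468 lower, and 96 to 103 and 24 to 38 at 2-fold or more. The fewest calls came without replicate 2 of 20 mM and the most without replicate 3 of 40 mM, which kept all 3911. DESeq2 called 4454 genes, and a fit of the 6 libraries alone 4848. Whether same-numbered libraries of the 2 doses were paired is not stated. The correlations of same-numbered deviations were -0.10, 0.07 and 0.17, and those of differently numbered ones ran from -0.19 to 0.11. With 3 libraries per dose, these values cannot decide whether the libraries were paired. With the replicate block 4245 genes were called, 2199 higher and 2046 lower, of which 3814 were also called without it. Rises made up 51.8% of calls with TMM, 51.0% with median-of-ratios and 57.2% with total-count scaling. Of the 257 named genes, 20 to 28 lost their call without a library of 0 or 20 mM and 0 to 4 without one of 40 mM. Without the level filter 25 lost it, with either limma setting 11, and with DESeq2 0.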
